A study of Mus musculus with 14 samples.

Results

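The infiltrating monocyte marker genes described here are 7 genes, *Ccr2*, *Itga4*, *Ly6c2*, *Chil3*, *Vcan*, *Plac8* and *S100a4*, out of 33939 genes in the deposited RNA-seq table. They were taken by symbol from a list of known markers of classical monocytes, and each was found once and passed the filter on low values in every comparison. CD11b+ microglia/macrophages had been sorted with magnetic beads from the hemispheres of C57BL/6 mice, 8 to 12 weeks old, all of them male, at 3 days after traumatic brain injury (TBI). Ctrl mice carried Cx3cr1-CreER+/- and cKO mice carried Cx3cr1-CreER+/-;Nhe1flox/flox, so a Cre allele at *Cx3cr1* and tamoxifen were common to all groups, and no library came from an uninjured mouse or from a mouse without Cre. The contralateral (CL, non-lesion) and the ipsilateral (IL, lesion) hemisphere gave 4 libraries each in Ctrl and 3 each in cKO mice. The Cre of this line acts in every *Cx3cr1*-expressing cell, and the study waited between tamoxifen and injury so that blood monocytes could be renewed from cells without recombination. The mice are numbered, and 6 of 8 gave both hemispheres.

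After brain injury, chemokines of the CCL family draw classical monocytes out of bone marrow and blood, and integrins let them adhere to and cross the vessel wall. In tissue these cells lose their monocyte genes as they become macrophages. Several monocyte markers are also made by other myeloid cells, above all by neutrophils and their precursors. RNA of a sorted bulk sample cannot tell more cells of a type from more RNA per cell.

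The libraries held 12.2 to 41.6 M reads assigned to genes (median 34.2 M, recovered from the smallest step of each library), and levels are given as CPM, the reads of a gene per 1000000 such reads. *Itgam*, which encodes CD11b, was at least 650.3 CPM in each library. Of the lymphocyte markers, *Cd3e*, *Cd3d*, *Cd3g*, *Trac*, *Cd79a*, *Ms4a1* and *Pax5* were under 1 CPM throughout, while *Ighm* was at 294 to 789 CPM, *Cd79b* at 15.5 to 41.8 CPM, and *Gzma* and *Nkg7* reached 7.33 and 7.02 CPM. A list of 12 homeostatic microglia genes summed to between 25040 and 52708 CPM per library, against 88.1 to 667 CPM for the 7 markers together. The CL libraries of Ctrl mice 3541 and 3546 stood apart in genes of granulocyte precursors, the IL library of Ctrl mouse 3546 in short transcripts and the CL library of cKO mouse 3592 in injury genes, and they are named beside the results they bear on.

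Changes were tested with limma on log2(CPM + 1) after scaling, with p values adjusted over all genes tested (Benjamini-Hochberg), and a gene was called where the adjusted p was 0.05 or less and the fold change 1.2 or more. With the mouse numbers from the labels as replicates, these p values measure the spread between the mice of a group. The reported fits did not use the pairing, and took the CL and IL libraries of the same mouse as independent. With the mouse as a block, *Itga4* was also called higher in IL in Ctrl mice, and *Ccr2* in cKO mice. In Ctrl mice, *Ccr2* and *Vcan* were called higher in the IL hemispheres, which is 2 of 7 markers, against 4.18% of 16376 genes tested. In cKO mice, *Itga4*, *Vcan*, *Plac8* and *S100a4* were called higher, 4 of 7, against 12.3% of 16757 genes. None was called lower in either genotype, against 3.33% and 10.8% of all genes. Every IL library stood above every CL library for 2 markers in Ctrl, against 6.26% of all genes, and for 3 in cKO mice, against 18.1%. The median log2 fold change of the 7 markers was 0.75 in Ctrl and 0.95 in cKO mice, and that of all genes was -0.03 and 0.01. The markers were chosen with earlier results of these data known, so the shares of all genes beside their counts are descriptions. Ctrl and cKO were tested apart here, and a gene called in only 1 of them is not thereby shown to differ between them.

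**Figure D1:**
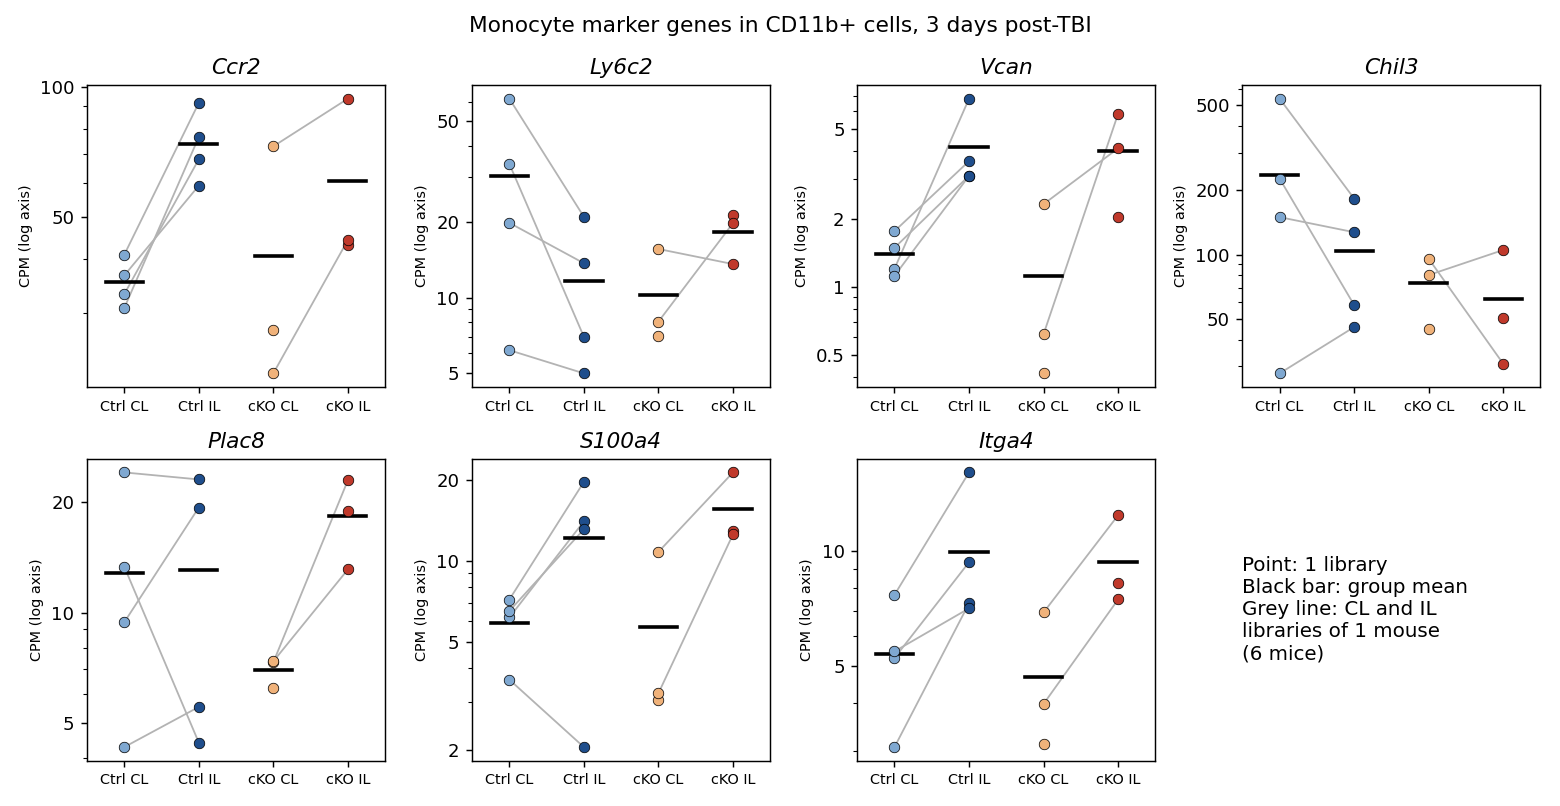
CPM on a log axis of the 7 marker genes in each of 14 libraries by group; points are libraries, black bars group means and grey lines join the hemispheres of a mouse. All 4 Ctrl lines of *Ccr2*, *Vcan* and *Itga4* go up from CL to IL, all 4 of *Ly6c2* go down, and the Ctrl CL points of *Chil3* run from 27.8 to 538 CPM.

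*Ccr2* (ENSMUSG00000049103, chromosome 9 of GRCm38 from 124101950 to 124113557, plus strand) encodes the receptor through which CCL2 draws monocytes from the marrow. In the CL hemispheres of Ctrl mice 3541, 3545, 3546 and 3551 it was at 30.8, 33.2, 40.9 and 36.6 CPM, and in their IL hemispheres at 76.5, 68.0, 91.7 and 59.1 CPM. Each Ctrl IL library was above each Ctrl CL library, and the ratio within a mouse lay between 1.61 and 2.48. The means were 35.4 ± 4.39 and 73.8 ± 13.9 CPM (SD, n = 4 each), a log2 fold change of 1.11 (limma, adjusted p = 0.00364, SE 0.16). The call was kept under each alternative that was run, the leaving out of each library among them. In cKO mice the CL libraries of 788, 791 and 3592 were at 27.4, 21.8 and 72.8 CPM and the IL libraries of 784, 791 and 3592 at 43.2, 44.2 and 93.8 CPM. Mouse 3592 was high in both hemispheres, and its CL library lay above 2 of the 3 cKO IL libraries. On the log2 scale the change was 0.73 (limma, adjusted p = 0.260, SE 0.43), and with the mouse as a block, which rests on the 2 cKO mice that gave both hemispheres, it was 0.75 (limma, adjusted p = 0.0348, SE 0.18). With the mouse as a random effect in a fit of all 14 libraries it was not called (limma, adjusted p = 0.0605). Leaving out 1 library at a time gave from 0.39 (limma, adjusted p = 0.574, SE 0.43), without the CL library of mouse 791, to 1.22 (limma, adjusted p = 0.0176, SE 0.28), without that of mouse 3592, and the latter alone of these 6 fits called the gene.

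*Itga4* (ENSMUSG00000027009, chromosome 2 from 79255426 to 79333123, plus strand) encodes integrin alpha 4, which pairs with the products of *Itgb1* or *Itgb7* and binds VCAM1 and fibronectin. In Ctrl mice 3541, 3545, 3546 and 3551 the CL libraries were at 5.26, 3.08, 7.70 and 5.48 CPM and the IL libraries at 9.37, 7.31, 16.1 and 7.10 CPM. It was higher in the IL hemisphere of 4 of 4 mice, by 1.30- to 2.38-fold, but the groups overlapped, with mouse 3546 the highest on both sides. The log2 difference was 0.84 (limma, adjusted p = 0.117, SE 0.29) without and 0.84 (limma, adjusted p = 0.0166, SE 0.17) with the mouse as a block. In the cKO CL libraries of 788, 791 and 3592 it was at 3.13, 3.99 and 6.93 CPM, and in the IL libraries of 784, 791 and 3592 at 8.27, 7.49 and 12.4 CPM. These groups did not overlap, and the log2 fold change was 0.95 (limma, adjusted p = 0.0332, SE 0.26). The call was kept without the CL library of mouse 3592 and lost without any 1 of the other 5 libraries, with limma adjusted p from 0.0667 to 0.107.

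*Vcan* (ENSMUSG00000021614, chromosome 13 from 89655312 to 89742509, minus strand) encodes versican, a matrix proteoglycan made by classical monocytes. It was the lowest of the 7 markers per kilobase of exon. In Ctrl mice 3541, 3545, 3546 and 3551 it was at 1.49, 1.204, 1.76 and 1.12 CPM in CL and at 3.10, 6.80, 3.60 and 3.10 CPM in IL libraries. It was higher on the lesion side of each mouse, by 2.04- to 5.65-fold, and no IL library reached down to a CL library. This gave a log2 fold change of 1.12 (limma, adjusted p = 0.0278, SE 0.25), and it lost its call when any of the 4 Ctrl CL libraries or the IL library of mouse 3541 was left out, with adjusted p values between 0.0530 and 0.0871. In the cKO CL libraries of 788, 791 and 3592 it was at 0.415, 0.619 and 2.32 CPM and in the IL libraries of 784, 791 and 3592 at 2.05, 5.83 and 4.10 CPM. The CL library of 3592 alone overlapped the IL group, and the log2 fold change was 1.31 (limma, adjusted p = 0.0434, SE 0.39). The call was lost without the CL library of 788 or 791 or the IL library of 791 or 3592, with limma adjusted p from 0.109 to 0.136.

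*S100a4* (ENSMUSG00000001020, chromosome 3 from 90603771 to 90606045, plus strand) encodes a small calcium-binding protein of motile leukocytes and fibroblasts. In Ctrl mice 3541, 3545, 3546 and 3551 it was at 6.18, 7.20, 3.64 and 6.53 CPM in CL and at 14.03, 19.6, 2.05 and 13.1 CPM in IL libraries. The IL library of mouse 3546 was the lowest of all 14, and the other 3 IL libraries were above every Ctrl CL library. On the log2 scale the change was 0.75 (limma, adjusted p = 0.498, SE 0.56), and 1.39 (limma, adjusted p = 0.0113, SE 0.27) without that library. It was 0.40 without the IL library of mouse 3545, the lowest value with any single library left out. In the cKO CL libraries of 788, 791 and 3592 it was at 3.04, 3.24 and 10.8 CPM and in the IL libraries of 784, 791 and 3592 at 12.9, 12.5 and 21.3 CPM. Mouse 3592 was again the highest of each group, the groups did not overlap, and the log2 fold change was 1.52 (limma, adjusted p = 0.0282, SE 0.39). The call was kept without the CL library of mouse 3592 and lost without any 1 of the other 5 (limma adjusted p from 0.0661 to 0.0926).

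*Plac8* (ENSMUSG00000029322, chromosome 5 from 100553725 to 100572245, minus strand) encodes a small cysteine-rich protein of myeloid and other leukocytes. In Ctrl mice 3541, 3545, 3546 and 3551 it was at 24.1, 9.40, 13.3 and 4.29 CPM in CL and at 23.1, 19.3, 4.42 and 5.53 CPM in IL libraries. The 2 groups covered nearly the same range, with a log2 fold change of 0.03 (limma, adjusted p = 0.987, SE 0.63). In the cKO CL libraries of 788, 791 and 3592 it was at 6.23, 7.31 and 7.36 CPM and in the IL libraries of 784, 791 and 3592 at 19.0, 22.9 and 13.1 CPM. Here the groups stood clear of each other, with a log2 fold change of 1.31 (limma, adjusted p = 0.00693, SE 0.23). Of the 4 cKO calls this one alone was kept in all 6 fits that each left out a library. In 1 fit of all 14 libraries, where the wide spread of the Ctrl libraries enters the error, its adjusted p was 0.234 by limma, those of *S100a4* and *Itga4* were 0.149 and 0.0761, and only *Vcan* stayed called. With the mouse as a random effect in that fit *Plac8* had an adjusted p of 0.0852 by limma, and *Vcan*, *S100a4* and *Itga4* were called, at 0.0107, 0.0423 and 0.0155.

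*Ly6c2* (ENSMUSG00000022584, chromosome 15 from 75108158 to 75111970, minus strand) encodes the Ly6C antigen by which classical monocytes are sorted. In Ctrl mice 3541, 3545, 3546 and 3551 it was at 61.6, 19.8, 33.9 and 6.18 CPM in CL and at 20.9, 13.7, 6.98 and 4.998 CPM in IL libraries. It was lower on the lesion side of 4 of 4 Ctrl mice, with ratios from 0.206 to 0.809, and the groups overlapped. The log2 difference was -1.02 (limma, adjusted p = 0.433, SE 0.67), and leaving out 1 library at a time gave from -1.62, without the CL library of 3551, to -0.53, without that of 3541. In the cKO CL libraries of 788, 791 and 3592 it was at 7.05, 8.02 and 15.6 CPM and in the IL libraries of 784, 791 and 3592 at 21.4, 19.7 and 13.6 CPM. This gave a log2 fold change of 0.89 (limma, adjusted p = 0.0616, SE 0.29), and the gene was called without the CL library of mouse 3592, at 1.196 (limma, adjusted p = 0.00812, SE 0.22), and without the IL library of that mouse (limma adjusted p = 0.0475). The difference between the genotypes in this hemisphere change was 1.90 on the log2 scale (SE 0.89), with an unadjusted p of 0.0518 and an adjusted p of 0.9997 by limma. Without the CL libraries of Ctrl mice 3541 and 3546 it was 0.93 (SE 0.80), and without any 1 library it was between 1.40 and 2.49. The longest coding transcript of *Ly6c2* matches *Ly6c1* over 822 bases at 97.6% identity, so reads of this pair cannot be told apart with confidence. Summed, both genes averaged 71.8 ± 42.3 CPM on the CL and 28.7 ± 14.1 CPM on the IL side of Ctrl mice (SD, n = 4 each; 2-sided exact permutation test on log2 values, p = 0.114). The sum was lower on the IL side of 4 of 4 Ctrl mice, with ratios from 0.240 to 0.712, and an exact paired permutation test gave p = 0.125, the smallest that 4 pairs allow. *Ly6c1*, which endothelial cells express and which is also in the endothelial list, made up 57.7% of the mean sum in Ctrl CL and 59.5% in Ctrl IL. In Ctrl CL of mice 3541, 3545, 3546 and 3551 it was at 66.9, 58.9, 12.8 and 27.2 CPM, and the endothelial gene *Cldn5* at 47.3, 58.9, 15.7 and 23.1 CPM. The Ctrl CL sums without mice 3541 and 3546 were 78.7 and 33.4 CPM, and the part of endothelial RNA in the sum was not tested. In cKO mice the sum was 26.7 ± 14.2 CPM in CL and 32.0 ± 6.69 CPM in IL (SD, n = 3 each; exact permutation test, p = 0.4, where this design cannot go under 0.1).

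*Chil3* (ENSMUSG00000040809, chromosome 3 from 106147554 to 106167564, minus strand) encodes Ym1, a secreted chitinase-like protein of monocytes, neutrophils and alternatively activated macrophages. In Ctrl mice 3541, 3545, 3546 and 3551 it was at 538, 149.9, 227 and 27.8 CPM in CL and at 183, 127, 58.1 and 45.8 CPM in IL libraries. In the cKO CL libraries of 788, 791 and 3592 it was at 45.1, 80.3 and 95.7 CPM and in the IL libraries of 784, 791 and 3592 at 50.5, 105 and 30.8 CPM. All groups overlapped, and Ctrl CL held both the highest and the lowest value of the 14 libraries. The log2 fold change between IL and CL was -0.67 (limma, adjusted p = 0.726, SE 0.83) in Ctrl and -0.29 (limma, adjusted p = 0.683, SE 0.45) in cKO mice. Without single libraries it was between -1.50, without the CL library of 3551, and -0.036, without that of 3541, in Ctrl, and between -0.78, without the IL library of 791, and 0.17, without that of 3592, in cKO mice. *Chil4* matches it over 1540 bases at 94.3% identity and was at most 0.106 CPM, and the pseudogene *Gm6522* over 1174 bases at 94.9% and was at most 0.409 CPM. Per kilobase of exon *Chil3* had the highest mean of the 7 genes in each group, at 144 ± 133 CPM in Ctrl CL and 38.1 ± 23.6 CPM in cKO IL, and *Vcan* the lowest, at 0.0964 ± 0.0203 and 0.276 ± 0.131 CPM (SD, n = 4 and 3).

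**Figure D2:**
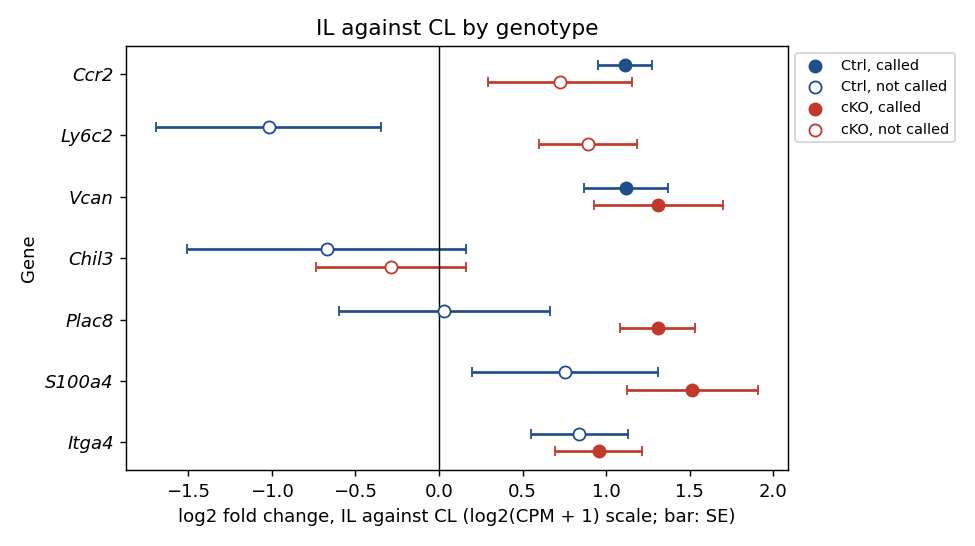
Log2 fold change (IL against CL, log2(CPM + 1) scale) of each marker in Ctrl (blue) and cKO mice (red); bars are the SE and filled points were called by limma. *Ccr2* and *Vcan* are filled in Ctrl, *Vcan*, *Plac8*, *S100a4* and *Itga4* in cKO mice, and *Ly6c2* lies on opposite sides of 0 in the genotypes, at -1.02 and 0.89, neither called.

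Between the genotypes, no marker was called in either hemisphere. In the IL hemispheres 0 of 7 were called, against 0.67% of 16873 genes, and in the CL hemispheres 0 of 7, against 0.905% of 16570 genes, and 0 markers had an unadjusted p under 0.05 by limma in either. On the lesion side *Ccr2* averaged 73.8 ± 13.9 CPM with 4 Ctrl and 60.4 ± 28.9 CPM with 3 cKO mice (SD), with a log2 fold change of -0.34 and a 95% interval from -0.93 to 0.24. It was -0.67 without the IL library of cKO mouse 3592 and -0.17 without that of 784, and uncalled in both fits. *Itga4* averaged 9.97 ± 4.21 and 9.40 ± 2.66 CPM, with an interval from -0.63 to 0.59, and *Vcan* 4.15 ± 1.78 and 3.99 ± 1.89 CPM, with an interval from -0.86 to 0.75. For *Ly6c2*, *Plac8*, *S100a4* and *Chil3* these intervals were wider, and that of *Chil3* reached from -2.05 to 0.71. In the CL hemispheres the log2 fold changes went from -1.14 for *Ly6c2*, with a 95% interval from -2.52 to 0.25 (and -0.17 without the CL libraries of 3541 and 3546), to 0.04 for *Ccr2*, with one from -0.69 to 0.77. Changes of 2-fold (1 on the log2 scale) in at least 1 direction thus lay inside the interval of *Ly6c2*, *Chil3*, *Plac8* and *S100a4* in both hemispheres. As an interaction of genotype and hemisphere, 0 of 7 markers and 0% of 18476 genes were called, and 0 markers and 477 genes had an unadjusted p under 0.05 by limma. Ordered by their means, neighbouring groups stood apart in 1 of 21 pairs over the 7 markers, against 8.36% of pairs over all genes. This pair was cKO IL, from 2.05 to 5.83 CPM, above Ctrl CL for *Vcan*.

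The 7 markers did not vary as a single set. After the group mean was taken from each library's log2 value, *Ly6c2*, *Chil3* and *Plac8* had Pearson's r between 0.90 and 0.95 with each other over the 14 libraries, and between 0.88 and 0.89 without the 2 libraries farthest from the median of the first gene. With *Ccr2* the same 3 genes had r of 0.20, 0.03 and -0.01. Among the markers *Ccr2* had its highest r with *Itga4*, at 0.69 (Spearman's rho 0.65), followed by *Vcan*, at 0.51 (rho 0.59). Without the 2 farthest libraries these were 0.55 and 0.32. *S100a4* and *Itga4* had an r of -0.26, and of 0.26 without the 2 farthest. These are descriptions, since 12 of the 14 libraries come as pairs from a mouse.

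**Figure D3:**
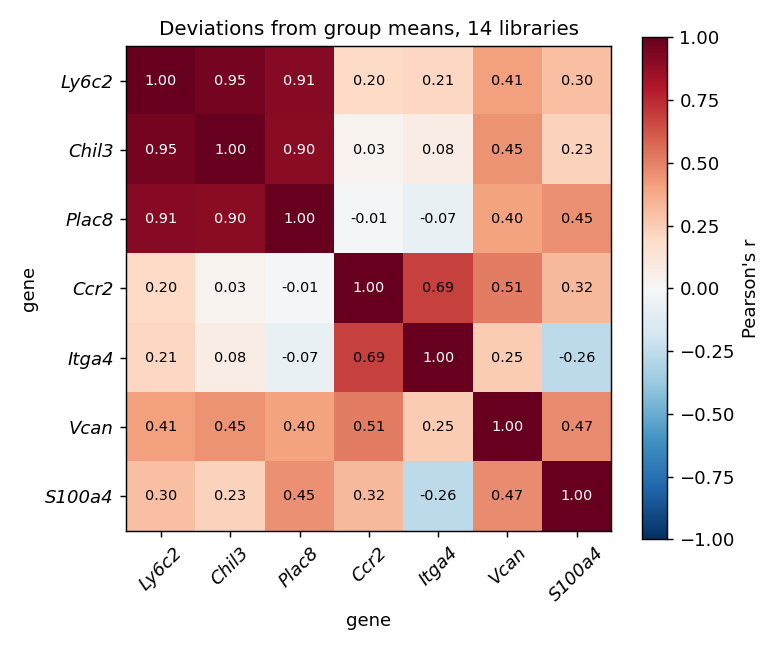
Pearson's r between the markers over 14 libraries, on log2 values less their group mean (colour from -1 in blue to 1 in red). *Ly6c2*, *Chil3* and *Plac8* form a block with r of 0.90 or more, and *Ccr2* is nearest to *Itga4* at 0.69.

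The 3 genes most like each marker by this measure were searched among 10406 genes, and these lists of 3 shared 1 gene, *Mxd1*, between *Chil3* and *Plac8*. For *Ly6c2* they were *Wfdc21*, *Ngp* and *I830127L07Rik*, each with r of 0.96, of which *Ngp* encodes a neutrophil granule protein and *I830127L07Rik* matches *Ly6c2* over 645 bases at 83.6% identity. For *Chil3* they were *Mxd1*, *Treml4* and *Chil1* (r from 0.97 to 0.98), and for *Plac8* they were *Prr13*, *Lta4h* and *Mxd1* (r from 0.96 to 0.97). For *Ccr2* they were *Kcnip3*, *Rftn1* and *Olfm1* (r from 0.94 to 0.96), and for *Itga4* they were *Lbp*, *Plekhm1* and *Ace* (r from 0.89 to 0.92). *Vcan* was nearest to *Mmp19*, *Nt5e* and *Agpat4* (r from 0.88 to 0.91), and *S100a4* to *S100a10*, *Lgals1* and *Smagp* (r from 0.96 to 0.98).

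The summed level of 13 neutrophil genes moved with *Ly6c2*, *Chil3* and *Plac8*. On group-centred log2 values r was 0.92 for *Ly6c2*, 0.92 for *Chil3* and 0.75 for *Plac8*, against 0.20 for *Ccr2*, 0.37 for *Vcan*, 0.32 for *Itga4* and 0.15 for *S100a4*. In Ctrl CL the sum was 8865 CPM in mouse 3541, 3096 in 3545, 4936 in 3546 and 1433 in 3551, the same order as for *Ly6c2*, *Chil3* and *Plac8*. The Ctrl IL libraries lay between 912 and 1589 CPM, those of cKO CL between 1371 and 2494, and those of cKO IL between 929 and 1172. *Csf3r*, the G-CSF receptor gene, was at 399 to 883 CPM over all libraries, and at 562 CPM in Ctrl CL of mouse 3541 against 827 CPM in that of 3551, the reverse of the order of the sum. Without it the sum of the other 12 was between 606 and 8303 CPM in Ctrl CL, 200 and 1174 in Ctrl IL, 659 and 1809 in cKO CL, and 283 and 459 in cKO IL, and r was 0.96 for *Ly6c2*, 0.94 for *Chil3*, 0.87 for *Plac8*, 0.50 for *Vcan* (Spearman's rho 0.71), 0.34 for *S100a4*, 0.32 for *Ccr2* and 0.29 for *Itga4*. *Mpo* and *Elane*, which encode granule proteases and peroxidase of granulocyte precursors, were at 177 and 59.3 CPM in Ctrl CL 3541 and at 235 and 70.5 CPM in Ctrl CL 3546, and at most 61.9 and 18.9 CPM in each other library. Without these 2 CL libraries, an alternative chosen after the data were seen, the log2 fold change of *Chil3* in Ctrl went from -0.67 to 0.54, those of *Ly6c2* and *Plac8* from -1.02 and 0.03 to -0.05 and 0.71, and 1 marker, *Ccr2*, stayed called. In cKO mice 8 of the 13 neutrophil genes were called lower in IL, *Ngp* among them with a log2 fold change of -1.90 (limma, adjusted p = 0.00461, SE 0.29), while *Plac8* was called higher. In Ctrl mice 0 of 13 were called by limma and 7 had an unadjusted p under 0.05, with a median log2 fold change of -2.38. The part of neutrophil RNA in the levels of these 3 markers was not tested. With the sum of the other monocyte and macrophage genes, *Ly6c2*, *Ccr2*, *Chil3*, *Vcan* and *Plac8* had r of 0.73, 0.67, 0.65, 0.60 and 0.54, and *Itga4* and *S100a4* of 0.49 and 0.46. *S100a4* had a higher r with the sum of the endothelial and mural genes, at 0.58, while its rho was 0.65 with this sum and 0.64 with the former. Without the 2 farthest libraries the order turned, with r of 0.63 for the endothelial and mural sum and 0.70 for the monocyte and macrophage sum. The other 6 markers had r from -0.32 to 0.47 with the endothelial and mural sum. The part of endothelial or mural RNA in the level of *S100a4* was not tested. With the sum of the border-associated macrophage genes *Ccr2* had 0.72, above its r with *Itga4*, and *Itga4* had 0.66, while *Ly6c2*, *Chil3* and *Plac8* had -0.08, -0.13 and -0.33. Without the 2 farthest libraries *Ccr2* and *Itga4* each had 0.47 with this sum, under the 0.55 between *Ccr2* and *Itga4*.

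**Figure D4:**
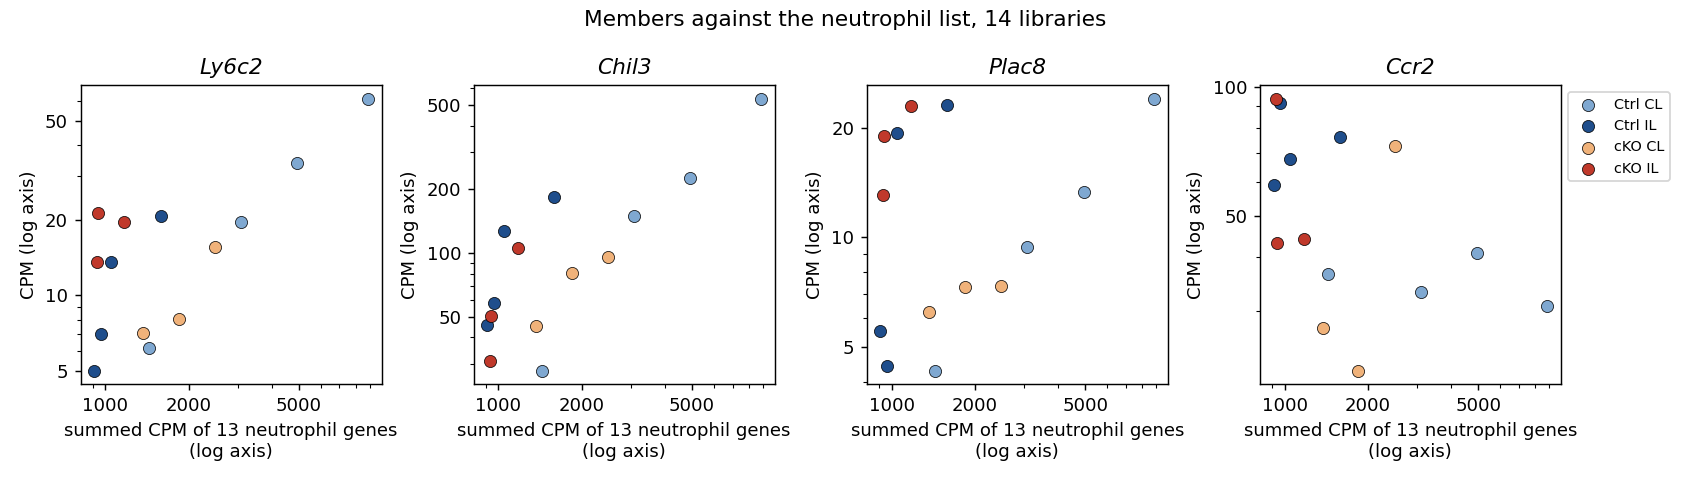
CPM of *Ly6c2*, *Chil3*, *Plac8* and *Ccr2* against the summed CPM of 13 neutrophil genes in each library (both axes log, colour by group). Within Ctrl CL the first 3 genes climb with the sum from 1433 to 8865 CPM, and *Ccr2* stays between 30.8 and 40.9 CPM.

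Since these 3 genes moved together within groups, the sequence before their start sites is shown, from RefSeq on GRCm38.p6, 5' to 3' on the strand of the gene. Capitals mark a match to a searched motif, and annotated exon bases were left out. The *Ly6c2* stretch is chr15:75111972-75112221, that of *Chil3* chr3:106167565-106167814 and that of *Plac8* chr5:100572246-100572455, all on the minus strand.
Ly6c2: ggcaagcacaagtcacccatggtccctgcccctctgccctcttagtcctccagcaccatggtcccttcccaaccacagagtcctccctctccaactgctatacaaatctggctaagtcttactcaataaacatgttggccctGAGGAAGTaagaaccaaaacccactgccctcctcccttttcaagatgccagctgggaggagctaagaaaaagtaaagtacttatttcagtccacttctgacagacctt
Chil3: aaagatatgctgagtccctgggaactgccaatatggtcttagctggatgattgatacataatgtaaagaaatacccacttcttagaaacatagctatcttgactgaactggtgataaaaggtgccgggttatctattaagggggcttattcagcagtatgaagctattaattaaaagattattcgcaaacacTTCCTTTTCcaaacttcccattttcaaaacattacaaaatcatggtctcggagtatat
Plac8: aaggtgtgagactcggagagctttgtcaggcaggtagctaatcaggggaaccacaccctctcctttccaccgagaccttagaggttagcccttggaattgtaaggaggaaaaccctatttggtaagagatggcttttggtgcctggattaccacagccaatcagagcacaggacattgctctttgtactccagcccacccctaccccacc
The motifs, searched on both strands in windows of 250 bases before and 50 after a start site, were PU.1 (GAGGAAGT), C/EBP (TTGCGCAA), NF-kB (GGGACTTTC) and IRF (GAAANNGAA). PU.1 letters begin at position -108 of *Ly6c2*, and IRF letters, on the other strand, at -58 of *Chil3*. In *Plac8* none of the 4 was found. Among all 32817 windows of the RefSeq table, 3.20% hold the PU.1, 8.55% the IRF, 0.353% the NF-kB and 0.183% the C/EBP letters. Outside the printed stretches, PU.1 letters also lie at position 27 of *Ly6c2* and 18 of *S100a4*, and IRF letters at -86 of *Ccr2*. *Ly6c2* has another RefSeq start site, from which the same PU.1 letters lie at -142 and -8. A match is a description of the letters and not a binding site.

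The IL library of Ctrl mouse 3546, which had the fewest reads (12.2 M), differed from the other 3 Ctrl IL libraries by transcript length. Among genes with a mean of at least 5 CPM in Ctrl IL, the median log2 difference was -2.05 for 199 genes with under 1000 exon bases and 0.53 for 1829 genes with 8000 or more. *S100a4*, with 584 exon bases, differed by -2.42, *Plac8* and *Chil3*, with 1592 and 1632, by -1.44 and -0.81, and *Itga4*, with 13978, by 0.95. This library held the lowest *S100a4* and the highest *Itga4* value of the 14 libraries, and the CL library of the same mouse the lowest *S100a4* and highest *Itga4* value of Ctrl CL. The part of transcript length in these values was not tested.

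**Figure D5:**
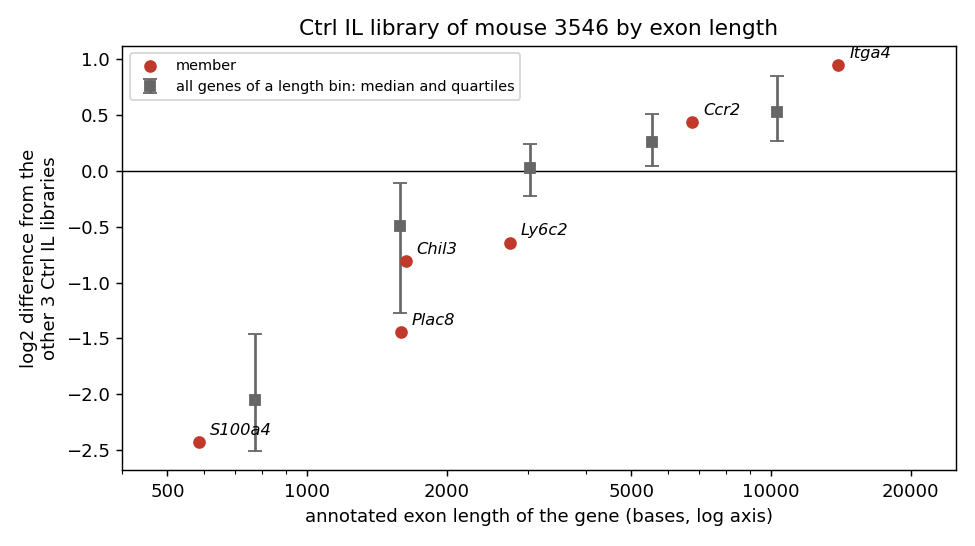
Log2 difference of the IL library of Ctrl mouse 3546 from the mean of the other 3 Ctrl IL libraries against annotated exon length (log axis); squares are medians with quartiles over the genes of a length bin, placed at its median length, and red points are markers. The bin medians go from -2.05 to 0.53 with length, and *S100a4* at -2.42 and *Itga4* at 0.95 lie at the ends; *Vcan*, under the minimum of 5 CPM, is not shown.

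Of 13 genes of monocyte recruitment, 2 were called higher and 1 lower on the lesion side in Ctrl mice, and 6 higher and 1 lower in cKO mice. Their median log2 fold change was 0.11 in Ctrl and 0.43 in cKO mice. *Vcam1*, which encodes a ligand of integrin alpha 4, averaged 98.9 ± 41.1 CPM in CL and 45.3 ± 9.72 CPM in IL of Ctrl (SD, n = 4 each). Its log2 fold change was -0.96 (limma, adjusted p = 0.0982, SE 0.31), and those of *Ccl8* and *Icam1* in Ctrl were -0.94 and -0.41, all uncalled. *Fn1*, which encodes fibronectin, another ligand of integrin alpha 4, went from 27.4 ± 8.50 to 457 ± 213 CPM in Ctrl (SD, n = 4 each), a log2 fold change of 4.03 (limma, adjusted p = 0.0002, SE 0.31), and had one of 3.40 (SE 0.50) in cKO mice. *Itgb7*, a partner of integrin alpha 4, was called higher in both, with log2 fold changes of 1.15 and 1.29, and *Itgb1*, the other partner, in neither, with 0.11 and 0.21. *Selplg*, the selectin ligand PSGL-1, which microglia also express, was called lower in both, with -1.21 and -1.16. *Ccl2*, the main ligand of CCR2, was called in cKO mice, with 1.38 (limma, adjusted p = 0.00378, SE 0.19), and had 0.24 (limma, adjusted p = 0.732, SE 0.31) in Ctrl. Its IL libraries of Ctrl mice 3541, 3545 and 3551 were at 194, 265 and 267 CPM and that of 3546, in which short transcripts were low, at 101 CPM, under every Ctrl CL library. *Ccl2* has 1138 exon bases, and the part of transcript length in its Ctrl value was not tested.

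Of 27 other genes of monocytes and the macrophages they give rise to, 15 were called higher and 0 lower on the lesion side in Ctrl mice, and 20 higher and 1 lower in cKO mice. The shares of all genes called higher were 4.18% and 12.3%. The median log2 fold change of the 27 genes was 1.46 in Ctrl and 1.79 in cKO mice. In Ctrl mice *Gpnmb*, which encodes a membrane glycoprotein of phagocytes, had one of 5.48 and *Thbs1*, which encodes thrombospondin, one of 4.75. *Gpnmb* averaged 47.6 CPM in CL and 1363 CPM in IL of Ctrl, and 120 and 616 CPM in cKO mice. For *Thbs1* these means were 48.6 and 1153 CPM in Ctrl, and 78.5 and 421 CPM in cKO mice. Activated microglia also express some of the 27 genes. Between the genotypes 0 of the 27 were called in either hemisphere by limma, and 4 in IL and 6 in CL had an unadjusted p under 0.05. Over all genes tested, 1559 of 16873 in IL and 1688 of 16570 in CL had one. Some genes count in more than 1 list: *Fn1* here and in recruitment, *S100a6* here and among the family neighbours, and *Itgal* in recruitment and among non-classical monocyte genes. In the CL library of cKO mouse 3592, *Fn1* was at 103 CPM, against at most 49.3 CPM in the other cKO CL libraries, beside the high *Ccr2*, *Vcan*, *S100a4* and *Itga4* values of that library.

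Of 9 non-classical monocyte genes, 2 were called higher on the lesion side in Ctrl mice, *Cd36*, a scavenger receptor, with a log2 fold change of 2.24 (SE 0.25), and *Nr4a1*, the transcription factor of this subset, with 1.03 (SE 0.16). In cKO mice 3 were called higher, *Cd36* at 1.73, the integrin gene *Itgal* at 1.18 and *Nr4a1* at 0.73, and in the CL hemispheres *Nr4a1* was called higher in cKO than in Ctrl mice, at 0.93. The median of this list was 0.47 in Ctrl and 0.27 in cKO mice, and 0 were called lower. Uncalled in Ctrl were *Treml4*, *Itgal* and *Ace*, at 0.87, 0.69 and 0.47, and *Adgre4*, *Spn* and *Pou2f2*, at -0.77, -0.46 and -0.24. *Eno3*, also uncalled, averaged 19.2 CPM in CL and 15.1 CPM in IL of Ctrl. Among 12 homeostatic microglia genes 6 were called lower in Ctrl and 7 in cKO mice, and *P2ry12* had log2 fold changes of -1.36 and -1.38. Of 7 endothelial and mural genes 0 were called by limma in either genotype, and 1 in Ctrl and 2 in cKO mice had an unadjusted p under 0.05. Of 9 border-associated macrophage genes 2 were called higher and 2 lower in Ctrl, and 2 higher and 1 lower in cKO mice, and of 8 dendritic cell genes tested 1, *Ccr7*, was called higher in each genotype, and 1 lower, *Siglech*, which is also in the microglia list and was at 473 to 1780 CPM. Of the T and NK cell genes 4 of 8 tested were called lower in Ctrl, where their sum was between 7.94 and 10.5 CPM in IL and between 18.0 and 31.7 CPM in CL libraries, and 0 of 10 in cKO mice by limma (0 with an unadjusted p under 0.05). Of the B cell genes *Ighm* was called lower in both genotypes. Of the oligodendrocyte precursor genes 1 of 5 tested was called higher in Ctrl, *Cspg4*, the NG2 proteoglycan gene, at 2.60, and 2 of 6 in cKO mice, *Cspg4* at 2.71 and *Olig1* at 0.88. The list's median log2 fold change was 0.04 in Ctrl and 0.36 in cKO mice, and *Sox10* had -0.26 and 0.11. Of the family neighbours and near copies of the markers, *Ccrl2* alone was called in Ctrl mice (1 of 20 tested), at 1.004 (limma, adjusted p = 0.0386, SE 0.25). In cKO mice 4 of 19 tested were called higher, *S100a6* at 1.32, *Ly6a* at 0.90, *S100a1* at 0.57 and *S100a13* at 0.38, and 4 lower, *S100a8* at -1.46, *S100a9* at -1.34, *Ly6g* at -1.27 and *Itga9* at -0.88. Of the lower ones *S100a8*, *S100a9* and *Ly6g* are also in the neutrophil list.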

How the data were processed

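The authors aligned reads of 14 Smart Seq v4 libraries to mm10 with STAR and counted genes in Partek Flow (Partek 8.0 per the submitters' processing notes). The deposited table holds CPM: each column sums to 1000000, and between 79.0% and 83.5% of values worth under 100 reads are whole multiples of 1 step (tolerance 0.03), so that no count test was used, although the table is named as raw counts. The authors' tables of fold changes and p-values between groups were not used.

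CPM were divided by unweighted trimmed-mean (TMM) factors, and log2(CPM + 1) was fitted with limma 3.58.1 (trend) in R 4.3.3 for 5 comparisons, each on its own libraries. Genes passed a filter at the CPM of 10 reads in a number of libraries equal to the smaller group's size, and 15 reads in all. The fit was tested on simulated data. Other steps used Python 3.11.15, with scipy 1.17.1, pandas 2.3.3, numpy 2.4.6 and, for figures, matplotlib 3.10.9. A precision limit is the depth of 12.2 to 41.6 M reads, and 95% intervals come from the fits.

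Mouse numbers pair libraries of the same animal: over 18476 genes, residuals of the 6 same-mouse pairs correlated at 0.184 to 0.603, and the 19 other pairs at -0.530 to 0.499. Alternatives were other scalings and pseudocounts, no filter, a joint fit, the mouse as a block and leaving out libraries.

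The 7 markers and the gene lists were chosen with earlier results of these data known. Named were all 7 markers, of each other list up to 4 genes called in Ctrl with the largest change (the 2 of highest mean where none was called), near copies of the markers, and for likeness the 3 genes of highest r. *Ccl2*, *Itgb1*, *Mpo*, *Elane*, *Olig1*, *Sox10*, *Itgal*, *Cd79b* and the lymphocyte genes under 1 CPM, and the near copies and neighbours called in cKO mice, were named after their values were seen. So were *Vcam1*, *Ccl8*, *Icam1* and the uncalled non-classical monocyte genes. Positions and exon lengths come from GENCODE M21 (GRCm38, the build of mm10), and near copies from aligning transcripts at an identity of at least 80%. Reads shared by overlapping or near-identical genes may have been split by the authors' counting. Some genes, the check of the targeted gene among them, are not reported here.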

Additional observations from a re-analysis of the deposited data

Results flagged for a closer look

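*Vcan* in the IL library of Ctrl mouse 3545 stood far above the other 3 Ctrl IL libraries, at 6.80 CPM against 3.10 to 3.60 CPM. The gap to the nearest library was 0.865 of the group's range, over the critical value of Dixon's test. Of the 14 groups of 4 libraries examined this was the only one, and chance marks about 1 in 20. Without this library *Vcan* stayed called in Ctrl mice, with a log2 fold change of 0.86 (limma adjusted p = 0.0432).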

How the results depend on the processing

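In Ctrl mice 2 markers were called between hemispheres, 1 without a filter on low values, 1 without the CL libraries of mice 3541 and 3546 (chosen after the data were seen) and 1 to 3 when single libraries were left out. With the mouse as a block 3 were called, also as a random effect. In cKO mice 4 were called, 2 on deposited CPM without scaling, 1 without a filter, 1 in a joint fit of 14 libraries, 5 with the mouse as a block, 3 as a random effect and 1 to 6 without single libraries. Between genotypes and for the interaction the count of markers was 0 in every setting run. The block was run for the comparisons between hemispheres only.

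Log2 changes that turned sign were all uncalled in the reported fit. *Plac8* (IL against CL, Ctrl) was -0.049 on deposited CPM, -0.0072 with upper-quartile scaling and -0.38 to 0.43 without single libraries. *Chil3* was 0.54 in Ctrl without the 2 CL libraries and -0.78 to 0.17 in cKO mice without single ones. For cKO against Ctrl in CL, *Ccr2* was -0.0036 without a filter and -0.013 with the mouse as a random effect, and without the 2 Ctrl CL libraries *Chil3* was 0.15, *Plac8* 0.13 and *Itga4* 0.12. Without single libraries the ranges there were -0.46 to 0.37 for *Ccr2*, -0.66 to 0.082 for *S100a4* and -0.40 to 0.046 for *Itga4*. In IL they were -0.34 to 0.26 for *Vcan*, -0.047 to 0.94 for *S100a4* and -0.18 to 0.17 for *Itga4*, and for the interaction -0.74 to 0.063 for *Ccr2*, -0.11 to 0.54 for *Vcan*, -0.27 to 1.19 for *Chil3* and -0.088 to 0.33 for *Itga4*. Other uncalled genotype differences kept their sign without single libraries but moved by over 1.5 times: in IL they ran from 0.46 to 1.15 for *Ly6c2*, 0.33 to 1.13 for *Plac8* and -1.16 to -0.22 for *Chil3*, and in CL from -1.74 to -0.64 for *Ly6c2*, -0.96 to -0.16 for *Plac8*, -1.88 to -0.42 for *Chil3* and -0.63 to -0.032 for *Vcan*. Without the 2 Ctrl CL libraries the interaction was -0.84 for *Chil3* and -0.16 for *Itga4*. The causes were not tested.

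Over all genes, calls in Ctrl went from 1231 to 3349 with the block, 4384 with the random effect, 2049 in the joint fit and 535 without a filter, and in cKO mice from 3870 to 2455, 3264, 1554 and 2436. On deposited CPM 625 were higher and 814 lower in Ctrl, against 685 and 546, and 1647 and 2146 in cKO mice, against 2067 and 1803.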
